A study of Mus musculus with 10 samples.

Results

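Transcripts of 8 mouse genes tied to B cells and to the organization of lymphoid tissue were followed in B16-F10 melanoma tumors: Cd79a, Cd79b, Cd22, Fcrla, Tnfrsf13c, Ebf1, Cxcl13 and Ltb. They were picked by symbol from the 17737 genes of the deposited count table, where all 8 were listed, and 7 of the 8 had enough counts to enter the test over 13798 genes. B16-F10 is a melanoma line of mouse origin, and its cells had been placed under the skin of the right flank of C57BL/6 animals, whose tumors were collected on day 11. In 5 of them, D69A tumors 1 to 5, the implanted cells overexpressed an IL-18 with alanine in place of aspartate at position 69. In the other 5, WT tumors 2 to 6, they overexpressed wild-type IL-18. Both groups thus carried an IL-18 transgene, no tumor without one was analysed here, and the labels do not say whether either line was 1 clone. Bulk RNA was sequenced, so each value is a level in the whole tissue, host cells included. The labels do not state that each tumor came from its own mouse, so p-values here reflect the spread between the sampled tumors, which may be technical.

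Cd79a and Cd79b encode the signalling chains of the B cell receptor, which carry the activation motifs that start the response to antigen. Cd22 encodes an inhibitory coreceptor that binds sialic acid, Fcrla an intracellular protein related to Fc receptors, and Tnfrsf13c the receptor for the survival factor BAFF. Ebf1, early B cell factor 1, is a transcription factor that commits progenitors to the B lineage and is also made by fibroblast-like, pericyte and fat precursor cells. CXCL13 draws B cells through the receptor CXCR5 into follicles, and lymphotoxin beta, the product of Ltb, is made by lymphocytes and signals to stromal cells, which answer in lymphoid organs by making such chemokines.

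Total counts lay between 34400949 and 37578722 in D69A tumors and between 25904345 and 37556163 in WT tumors, so that 3 counts, taken as a floor, came to 0.0775 to 0.115 CPM (counts scaled to a common library total) over the 10 tumors. Melanocyte marker transcripts were abundant in every tumor, with a summed level of 24800 to 31700 CPM in D69A tumors and 16800 to 20900 CPM in WT tumors. Markers of skeletal muscle, a tissue that lies beside such tumors, were uneven, with the highest sums in WT tumor 4 (1590 CPM), WT tumor 3 (1070 CPM) and D69A tumor 1 (564 CPM), and their part in the levels of the 8 genes was not tested.

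The genes that define B cells were close to the limit of detection, and in WT tumors they did not follow the tumors in which most of the 8 genes were high. Ms4a1, which encodes CD20, had 0, 5, 3, 0 and 0 counts in D69A tumors 1 to 5, and 35, 5, 0, 21 and 0 counts in WT tumors 2 to 6. It was thus highest in WT tumors 2 and 5 and at 5 counts or fewer in each of the other 8 tumors. Fcer2a, which encodes the low-affinity IgE receptor of mature B cells, had 0, 0, 0, 1 and 0 counts in D69A tumors and 17, 0, 5, 17 and 2 counts in WT tumors, again highest in WT tumors 2 and 5. Summed over Ms4a1, Pax5, Blk, Fcer2a, Fcmr and Cr2, a choice of 6 B cell genes made after their values were seen, there were 8, 18, 25, 18 and 20 counts in D69A tumors 1 to 5 and 119, 31, 19, 90 and 25 counts in WT tumors 2 to 6. WT tumors 3, 4 and 6 were therefore in or near the range of the D69A tumors for this sum. Pax5 made up much of it in D69A tumors, with 5, 10, 18, 14 and 15 counts in D69A tumors 1 to 5. In WT tumors 2 to 6 Pax5 had 35, 20, 2, 31 and 23 counts. Blk had 0, 3, 0, 0 and 0 counts in D69A tumors and 13, 4, 9, 14 and 0 in WT tumors. The overlap thus holds for the sum and not for each of the genes. By exact two-sided permutation of log2(CPM + 0.1), p was 0.286 for Ms4a1 and 0.0476 for Fcer2a, and both were too low for the test across genes. Since the markers that define B cells were this low, the 8 genes are called here by their symbols and not taken as a measure of B cells.

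Cd79a, the member most restricted to B cells, had its highest values in WT tumors 2 and 5, as did Ms4a1 and Fcer2a. Cd79a (chr7:24897381-24902197, GENCODE M21 on mm10, as for the other members) had 8, 2, 4, 6 and 4 counts in D69A tumors 1 to 5, and 29, 6, 0, 16 and 8 counts in WT tumors 2 to 6. The groups overlapped, with the highest and the lowest value both in WT tumors. Its mean was 0.135 ± 0.0617 CPM in D69A tumors and 0.329 ± 0.284 CPM in WT tumors (SD, n = 5 each), and the difference did not pass the exact two-sided permutation test (p = 0.325, where 5 against 5 tumors allow a smallest p of 0.00794). When the filter on low counts was lifted, the log2 fold change of D69A over WT was -1.27 with an SE of 0.81 (adjusted p = 0.251 by edgeR's quasi-likelihood method). No difference in Cd79a was thus detected with these tumors at these counts. An alternative added after seeing the data left out the 3 tumors with most muscle transcripts, WT tumors 3 and 4 and D69A tumor 1. The log2 fold change was then -2.09 (edgeR quasi-likelihood adjusted p = 0.0191). These tumors held the lowest WT counts of Cd79a (6 and 0) and the highest D69A count (8). That fit kept the low count filter, which Cd79a passed through the WT tumors left. Its entry thus favoured a lower call, and no conclusion is drawn from it.

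Cd79b, whose product pairs with CD79A, was lower in D69A tumors and had another distribution over the tumors than Cd79a. Cd79b (chr11:106311341-106314762) had 29, 16, 0, 6 and 15 counts in D69A tumors 1 to 5, and 49, 75, 54, 70 and 19 counts in WT tumors 2 to 6. WT tumors 3 and 4, with 6 counts or fewer each of Cd79a and Ms4a1, were among the higher ones for Cd79b, and 4 of 5 D69A tumors lay below all WT tumors. The level was 0.361 ± 0.294 CPM in D69A tumors and 1.47 ± 0.523 CPM in WT tumors (SD, n = 5 each), 4.02-fold lower (log2 fold change -2.01 with an SE of 0.64, edgeR quasi-likelihood adjusted p = 0.0258). This call was lost when D69A tumor 4 (adjusted p = 0.0646), D69A tumor 5 (0.053) or WT tumor 3 (0.0605) was left out, and after removal of those 3 muscle-rich tumors (0.0552). In bulk tissue, fewer cells of a type and less RNA per cell cannot be told apart, here and for every gene that follows.

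Of the 8 genes, the 7 that could be tested were all lower in D69A tumors. The background in this comparison was 24.7% of tested genes called lower and 18.8% called higher. In 5 of the 8 (Cd22, Fcrla, Tnfrsf13c, Ebf1 and Ltb) all D69A tumors lay below all WT tumors, as they did for 17.4% of tested genes. The median log2 fold change of the 7 was -2.38, beside 0.00 over all tested genes. Cd79a, which did not pass the filter, is not among the 7. Tnfrsf13c and Cxcl13, with at most 9 and 12 counts in any D69A tumor, passed the low count filter through WT tumors, where they were higher. Cd79b, with 0 and 6 counts in D69A tumors 3 and 4, and Fcrla, with 8 in D69A tumor 5, also needed WT tumors to pass it. The entry of these genes to the test thus favoured a lower call, and the count of 7 and its median carry that limit. The same can hold for low genes of the lists below. With the filter lifted, 7 of the 8 were called lower.

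**Figure D1:**
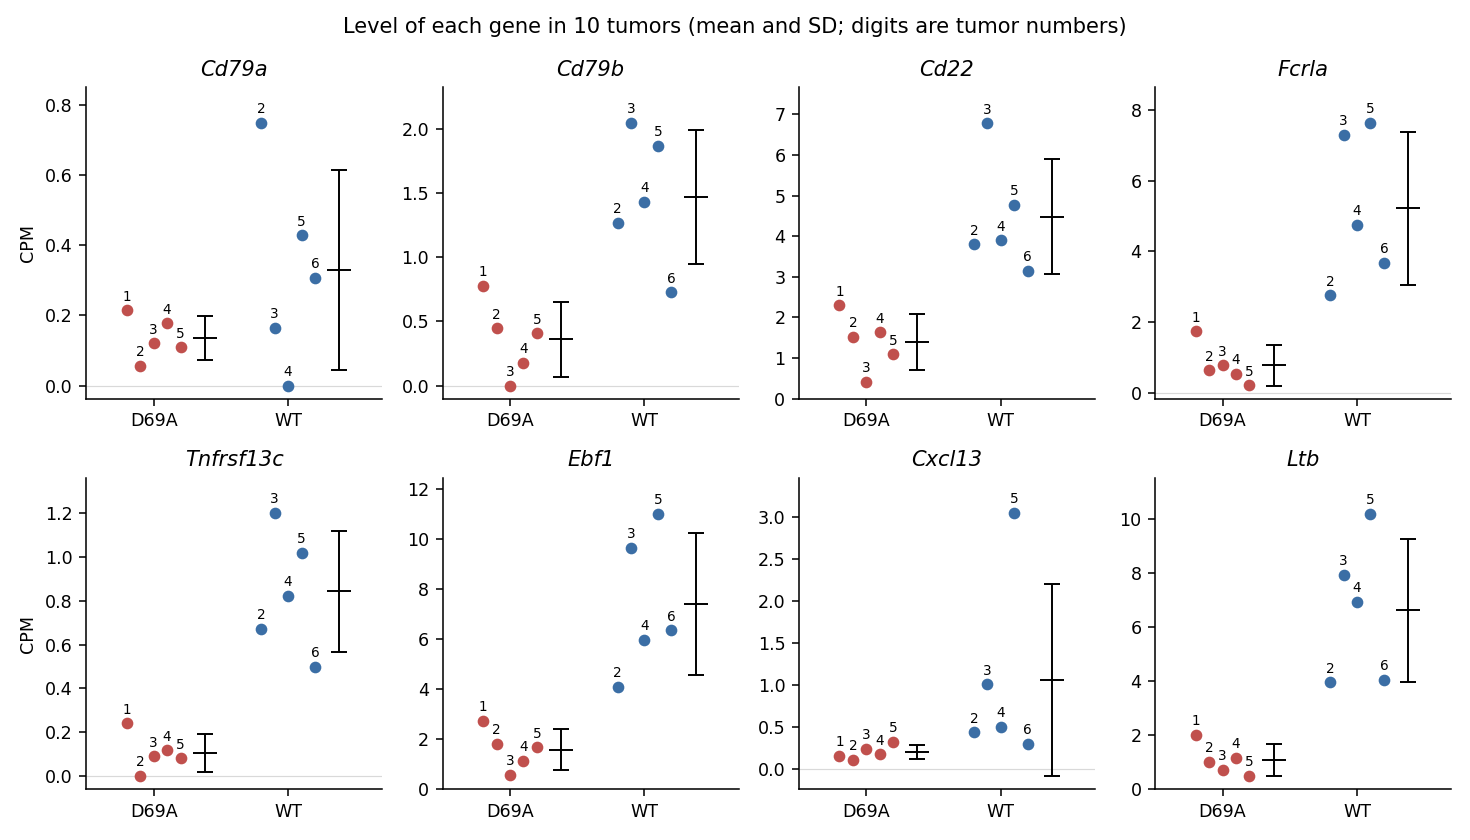
CPM of each of the 8 genes in D69A tumors 1 to 5 (red, left) and WT tumors 2 to 6 (blue, right), each point a tumor with its number above it, black bars the mean and SD of 5 tumors. Cd79a overlaps between the groups, whereas in 5 of the genes every D69A tumor lies below every WT tumor, and Cxcl13 is highest in WT tumor 5 (3.05 CPM).

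Cd22 (chr7:30865402-30880342) had 86, 55, 14, 55 and 40 counts in D69A tumors 1 to 5 and 147, 248, 147, 178 and 82 counts in WT tumors 2 to 6. WT tumor 3 was highest and D69A tumor 3 lowest, and the groups did not overlap once scaled to library size. It stood at 1.39 ± 0.695 CPM in D69A tumors and 4.48 ± 1.41 CPM in WT tumors (SD, n = 5 each), a 3.21-fold lower level (log2 fold change -1.68 with an SE of 0.38, edgeR quasi-likelihood adjusted p = 0.00514). Of its exon sequence, 9.5% lies opposite Gm29439, where reads of both genes would be mixed if counting ignored strand.

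Fcrla (chr1:170917576-170927583) had 65, 23, 26, 18 and 8 counts in D69A tumors 1 to 5 and 107, 267, 179, 285 and 96 counts in WT tumors 2 to 6. Its highest values were in WT tumors 3 and 5, and WT tumor 2, the tumor with most Cd79a and Ms4a1, was the lowest of its group in CPM. The level was 0.782 ± 0.573 CPM in D69A tumors and 5.22 ± 2.17 CPM in WT tumors (SD, n = 5 each), 6.65-fold lower (log2 fold change -2.73 with an SE of 0.49, edgeR quasi-likelihood adjusted p = 0.00157). Tnfrsf13c, the BAFF receptor gene (chr15:82221743-82224369), had 9, 0, 3, 4 and 3 counts in D69A tumors and 26, 44, 31, 38 and 13 counts in WT tumors. It was 7.71-fold lower, with 0.106 ± 0.0871 CPM in D69A tumors and 0.842 ± 0.278 CPM in WT tumors (SD, n = 5 each; log2 fold change -2.95 with an SE of 0.56, adjusted p = 0.00198 by the same method). No D69A tumor reached the lowest WT tumor in either gene.

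The promoters of Cd79a, Cd22 and Fcrla are shown because all of them are known as B cell genes, yet Cd79a was distributed over the tumors differently from Cd22 and Fcrla. The windows span 250 bases before to 50 bases after a RefSeq start of each gene (GRCm38.p6, the assembly also known as mm10). That of Cd22 lies wholly within the GENCODE span of the gene given above, so its RefSeq start is downstream of the outermost annotated start. This is also true of the Ebf1 windows. Capitals mark matches, on either strand, to a core of the EBF motif (CCCNNGGG) or to the interferon-stimulated response element (ISRE), where N is any base. Cd79a lies at chr7:24897247-24897546 on the plus strand, Cd22 at chr7:30878979-30879278 and Fcrla at chr1:170927534-170927833, both on the minus strand.
Cd79a: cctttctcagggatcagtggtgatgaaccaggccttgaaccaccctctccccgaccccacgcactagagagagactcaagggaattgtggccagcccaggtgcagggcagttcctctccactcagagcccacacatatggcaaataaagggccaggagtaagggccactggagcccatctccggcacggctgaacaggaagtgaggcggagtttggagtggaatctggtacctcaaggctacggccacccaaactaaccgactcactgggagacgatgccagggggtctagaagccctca
Cd22: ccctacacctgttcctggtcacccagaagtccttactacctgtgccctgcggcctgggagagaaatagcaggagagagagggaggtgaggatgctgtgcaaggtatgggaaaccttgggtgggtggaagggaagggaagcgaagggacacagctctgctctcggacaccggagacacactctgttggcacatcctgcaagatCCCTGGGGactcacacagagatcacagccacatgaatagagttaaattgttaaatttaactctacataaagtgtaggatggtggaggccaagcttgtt
Fcrla: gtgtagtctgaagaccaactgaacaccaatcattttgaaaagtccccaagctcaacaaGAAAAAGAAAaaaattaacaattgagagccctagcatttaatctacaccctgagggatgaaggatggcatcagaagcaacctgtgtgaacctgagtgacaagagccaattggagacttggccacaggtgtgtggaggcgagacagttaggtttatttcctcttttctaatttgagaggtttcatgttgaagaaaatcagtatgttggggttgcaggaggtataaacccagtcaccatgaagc
The EBF core was present in the Cd22 window, as CCCTGGGG with its first base 48 bases before the start, and in no other of the 8 windows that matched the members (7 genes, Ebf1 with 2 windows). It occurs in 13.7% of all 32851 promoter windows of that length. The Fcrla window held an ISRE match (GAAAAAGAAA, 192 bases before the start), as did 1 of the Ebf1 windows, beside 3.44% of all windows. A match describes letters and not a bound site, and the absence of one says only that these letters are not in this window.

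**Figure D2:**
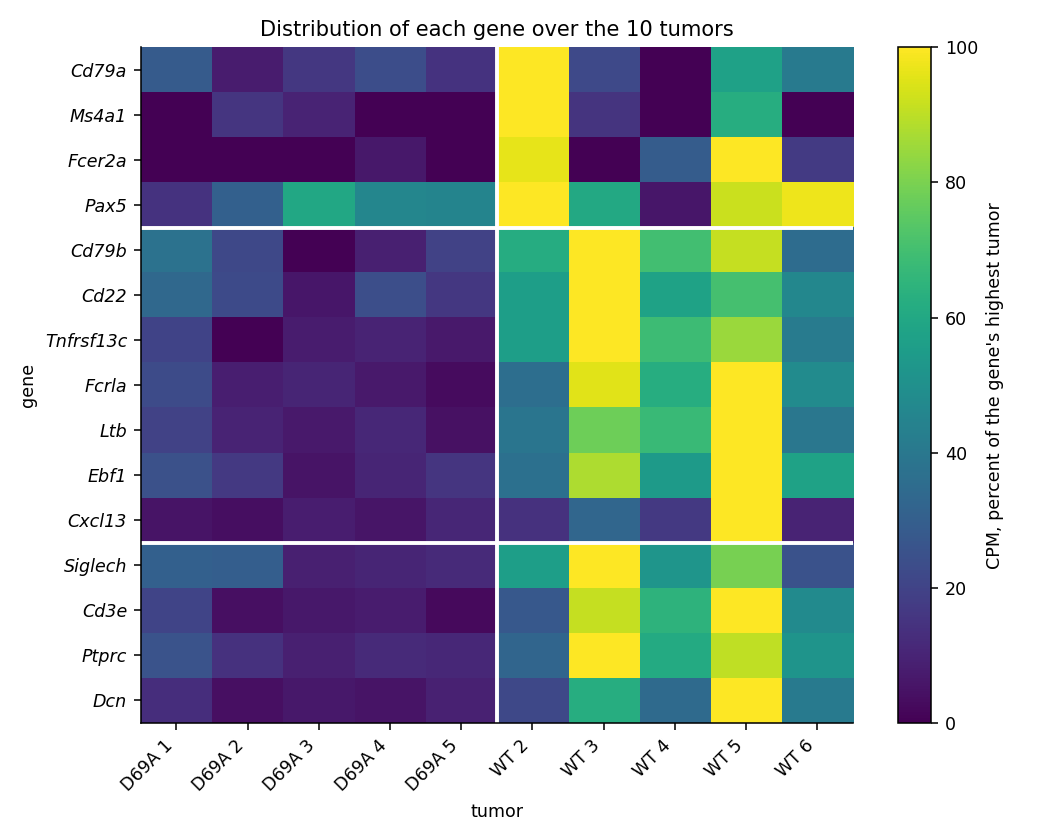
CPM of 15 genes (rows) in the 10 tumors (columns, D69A left of WT), coloured as percent of each gene's highest tumor. Cd79a, Ms4a1 and Fcer2a peak in WT tumors 2 and 5, whereas Cd79b, Cd22, Tnfrsf13c, Fcrla, Ltb and Ebf1 peak in WT tumors 3 and 5. So do Siglech (plasmacytoid dendritic cells), Cd3e (T cells) and Ptprc (all leukocytes). Pax5 follows neither, with 0.904, 0.88 and 0.83 CPM in WT tumors 2, 6 and 5.

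Ebf1 (chr11:44617317-45008091), the lineage factor that stromal cells also make, had 102, 65, 19, 39 and 62 counts in D69A tumors 1 to 5 and 158, 353, 225, 411 and 166 counts in WT tumors 2 to 6. All D69A tumors lay below all WT tumors, with WT tumor 5 highest and WT tumor 2 lowest of its group. The means were 1.59 ± 0.803 CPM in D69A tumors and 7.41 ± 2.84 CPM in WT tumors (SD, n = 5 each; log2 fold change -2.22 with an SE of 0.40, edgeR quasi-likelihood adjusted p = 0.00153). Pax5, the transcription factor that holds B cell identity downstream of EBF1, had 5, 10, 18, 14 and 15 counts in D69A tumors and 35, 20, 2, 31 and 23 counts in WT tumors, and did not pass the threshold (log2 fold change -0.85, SE 0.58, adjusted p = 0.259). WT tumor 4 held 225 counts of Ebf1 and 2 of Pax5. Of the other members of the family, Ebf2, a factor of fat precursor cells, was 4.24-fold lower (adjusted p = 0.00476 by edgeR's quasi-likelihood method), Ebf3 had a log2 fold change of -0.17 and did not pass (adjusted p = 0.383), and Ebf4 was too low to test.

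Cxcl13, the B cell attractant, was scarce, and the size of its difference rested largely on 1 tumor. Cxcl13 (chr5:95956951-95961068) had 6, 4, 8, 6 and 12 counts in D69A tumors 1 to 5, and 17, 37, 19, 114 and 8 counts in WT tumors 2 to 6. WT tumor 5 stood far above the rest, and WT tumor 6 fell within the range of the D69A tumors. The level was 0.203 ± 0.0826 CPM in D69A tumors and 1.06 ± 1.14 CPM in WT tumors (SD, n = 5 each), 5.19-fold lower (log2 fold change -2.38 with an SE of 0.66, edgeR quasi-likelihood adjusted p = 0.0136). With WT tumor 5 left out, the log2 fold change was -1.43 (adjusted p = 0.0264). Cxcr5, the gene of its receptor, was 3.67-fold lower (0.268 ± 0.147 CPM in D69A tumors and 0.987 ± 0.457 CPM in WT tumors, SD, n = 5 each).

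Ltb had the smallest adjusted p of the 8. The gene (chr17:35194439-35196320) had 75, 36, 23, 39 and 17 counts in D69A tumors 1 to 5 and 153, 291, 261, 382 and 106 counts in WT tumors 2 to 6. The groups did not overlap, and WT tumors 5, 3 and 4 were the highest. It stood at 1.06 ± 0.591 CPM in D69A tumors and 6.62 ± 2.67 CPM in WT tumors (SD, n = 5 each), 6.21-fold lower (log2 fold change -2.64 with an SE of 0.41, edgeR quasi-likelihood adjusted p = 0.000932). Lta, which encodes the partner chain of the lymphotoxin heterotrimer, was 6.26-fold lower, and Tnf, its neighbor in the same gene cluster, 6.19-fold lower. Ltbr, the gene of the lymphotoxin beta receptor, was higher (184 ± 6.34 CPM in D69A tumors and 159 ± 15.1 CPM in WT tumors, SD, n = 5 each; log2 fold change 0.21, adjusted p = 0.0247). Ligand and receptor genes thus differed in opposite directions, by very different amounts.

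The Ltb promoter is shown because its gene had the smallest adjusted p, and because it alone among the members held 2 kinds of match. It lies at chr17:35194257-35194556 on the plus strand (RefSeq, GRCm38.p6), with capitals for an interferon-gamma activated site (GAS, TTCNNNGAA) and a match to the NF-kB motif GGGNNTTTCC on the opposite strand.
Ltb: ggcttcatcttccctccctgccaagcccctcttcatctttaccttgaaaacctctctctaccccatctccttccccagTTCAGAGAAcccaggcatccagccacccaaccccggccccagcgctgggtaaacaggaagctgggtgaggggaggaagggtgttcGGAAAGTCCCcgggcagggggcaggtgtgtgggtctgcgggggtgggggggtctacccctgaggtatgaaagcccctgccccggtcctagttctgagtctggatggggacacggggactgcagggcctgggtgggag
The GAS match began 172 bases and the NF-kB match 87 bases before the start. The GAS letters occur in 8.3% and the NF-kB letters in 1.63% of all windows of that length, and neither was found in a window of another member.

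Compared per length of exon sequence, the order of the genes in WT tumors was Ltb (4.37 ± 1.76 CPM per kb), Fcrla (2.99 ± 1.24), Cd79b (1.03 ± 0.366), Cxcl13 (0.924 ± 0.995), Cd22 (0.888 ± 0.28), Ebf1 (0.76 ± 0.291), Tnfrsf13c (0.411 ± 0.136) and Cd79a (0.226 ± 0.195; SD, n = 5 each). Neighbors in this order lay within the larger of their SDs except for the step below Fcrla and the step below Ebf1. Fcrla exceeded both chains of the B cell receptor per length, with 0.448 ± 0.328 CPM per kb in D69A tumors, where Cd79b stood at 0.252 ± 0.205 and Cd79a at 0.0928 ± 0.0424.

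Genes listed for the B cell pathway around the members were mostly lower in D69A tumors, as were all 10 pan-leukocyte genes (median -2.10). Beside the counts called in each list below stand 24.7% of all tested genes called lower and 18.8% called higher. Of 17 B cell markers, 15 were listed and 8 could be tested, of which 7 were lower, Pax5 did not pass, and the median log2 fold change was -2.15. Among them, Cd37, a tetraspanin gene of B cells and other leukocytes, was 4.11-fold lower, and Spib, a transcription factor gene of B cells and plasmacytoid dendritic cells, 4.86-fold lower. Of 6 tested receptor chains and coreceptors, 5 were lower, and Cd81, a tetraspanin gene of most cells, did not pass. The inhibitory receptor genes Fcgr2b, Cd72 and Siglecg were 3.18-fold, 2.84-fold and 6.41-fold lower. Ighm, Ighd, Igkc and Iglc1 were on the list but were not found by symbol in the count table, so their levels could not be read.

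Of 15 tested genes of B cell receptor signalling, 13 were lower (median -1.60), among them Btk (3.83-fold) and Prkcb (5.35-fold), kinases of the pathway, Lyn (2.16-fold) and the phosphatase gene Inpp5d (4.4-fold). Blk, the Src family kinase gene most restricted to B cells, was too low to test, with 0, 3, 0, 0 and 0 counts in D69A tumors and 13, 4, 9, 14 and 0 in WT tumors. Of 14 tested lineage transcription factors, 10 were lower (median -2.09), including Ikzf1 (4.74-fold), Spi1 (4.26-fold), Irf8 (5.82-fold) and Pou2f2 (4.24-fold), while Pax5, Tcf3, Foxo1 and Irf4 did not pass. The first 3 named are also lineage factors of T or myeloid cells.

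Survival factors and attractants moved in the same direction. In the BAFF and APRIL list 7 of 8 tested genes were lower and Traf3, a negative regulator of noncanonical NF-kB signalling, was higher (log2 fold change 0.21, adjusted p = 0.00835 by edgeR's quasi-likelihood method). Tnfsf13b, which encodes BAFF itself, was 5.05-fold lower, and Tnfrsf13b, the gene of the receptor TACI, 3.7-fold lower. The lymphotoxin list had 9 lower and 2 higher (Ltbr and Traf3) of 11 tested, with Nfkb2 1.81-fold and Tnfrsf14 4.43-fold lower. All 6 tested lymphoid chemokine and receptor genes were lower (median -2.19), including Ccr7 (6.85-fold), Cxcl12 (5.3-fold) and the scavenging receptor gene Ackr3 (3.99-fold). Ccl19, a T zone chemokine gene, was at 0 counts in all 5 D69A tumors and at 4, 2, 6, 5 and 1 counts in WT tumors 2 to 6. All 7 tested markers of follicular dendritic and lymphoid stromal cells were lower, among them Icam1 (5.36-fold), Vcam1 (4.14-fold), Clu (3.49-fold) and Bst1 (3.77-fold), but Cr2, which defines follicular dendritic cells, had 0 to 3 counts in D69A tumors and 0 to 8 in WT tumors.

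Plasma cell transcripts were uneven among the WT tumors. Jchain, which encodes the chain that joins IgM and IgA units, had 6, 0, 2, 0 and 0 counts in D69A tumors 1 to 5 and 6, 2, 57, 186 and 11 counts in WT tumors 2 to 6. Most of it lay in WT tumors 4 and 5, so that WT tumor 2, high in Cd79a and Ms4a1, was low in Jchain. Of 3 tested plasma cell markers, Prdm1 was 2.78-fold lower and Sdc1 and Xbp1 did not pass. Iglc2, an immunoglobulin light chain gene, had 0, 4, 0, 0 and 2 counts in D69A tumors and 12, 14, 11, 24 and 4 counts in WT tumors, and its groups did not overlap in CPM (exact two-sided permutation p = 0.00794, the smallest that 5 against 5 tumors allow).

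**Figure D3:**
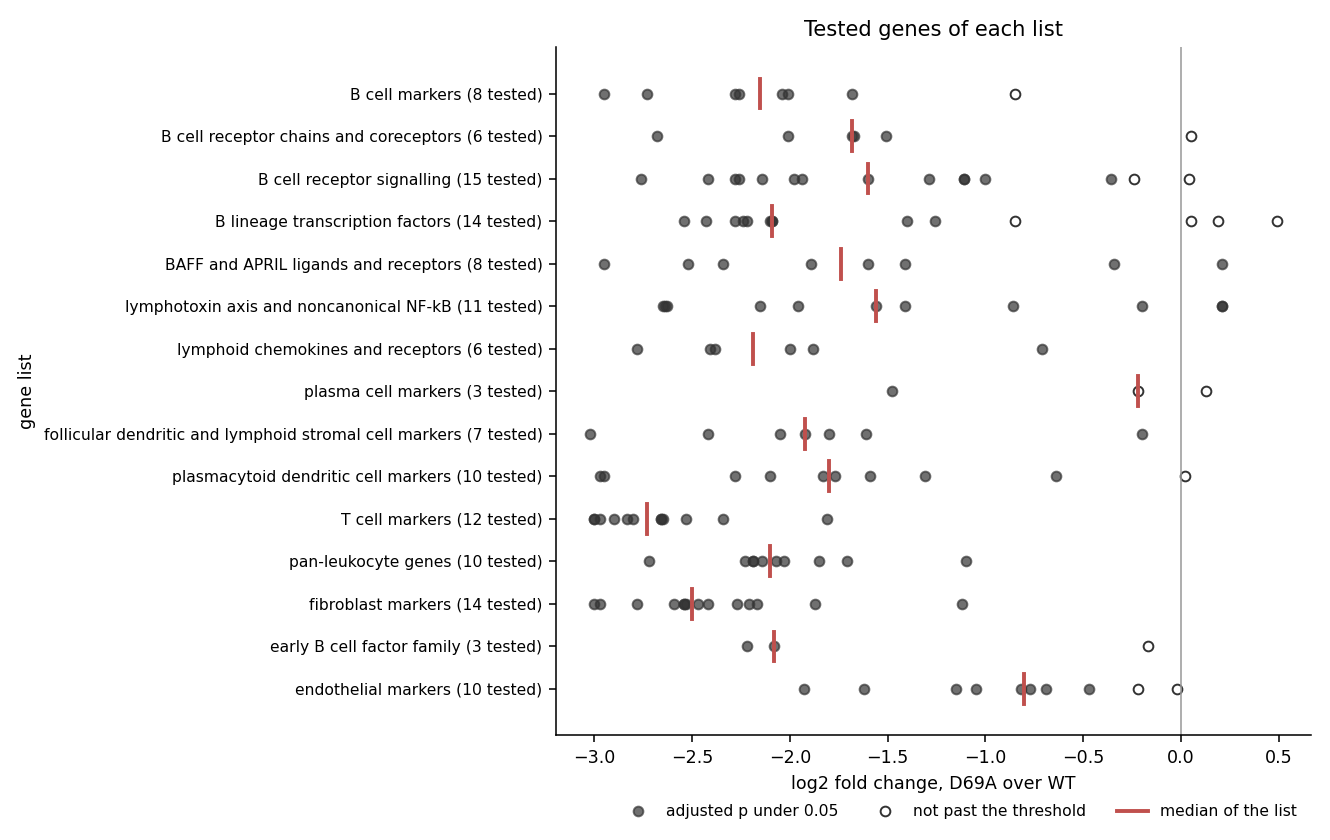
Log2 fold change of D69A over WT for the tested genes of each list, filled where the adjusted p was under 0.05 and open otherwise, red ticks marking the median of the list. Lists of lymphoid genes, pan-leukocyte genes (median -2.10) and fibroblast genes (median -2.50) lie far to the left, endothelial genes (median -0.80) less so.

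Markers of several other cell types were also lower, though not of all, beside 24.7% of all tested genes called lower. The summed level of 12 listed T cell markers was 8.44 to 29.1 CPM in D69A tumors and 40.9 to 121 CPM in WT tumors, and all 12 were lower (median -2.73), none of them at 0. Of 10 plasmacytoid dendritic cell markers, 9 were lower and Tcf4 did not pass, with sums of 292 to 528 CPM in D69A tumors and 770 to 1040 CPM in WT tumors, and Siglech, which defines these cells, had 89, 83, 23, 27 and 34 counts in D69A tumors and 168, 284, 153, 231 and 51 counts in WT tumors. All 14 fibroblast markers were lower, with sums of 683 to 1910 CPM in D69A tumors and 3030 to 7590 CPM in WT tumors. Of 10 tested pericyte markers, 6 were lower, and of 6 tested adipocyte markers all were. All 10 NK cell markers (median -2.78), 9 of 11 macrophage markers (median -1.72) and 8 of 10 endothelial markers were lower as well. Melanocyte markers went the other way, with 7 of 10 higher (median 0.51), beside 18.8% of all tested genes. The 10 skeletal muscle markers did not pass the threshold (median -1.97). The part of these cell types in the levels of the members was not tested.

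The size of the shared decrease was then set beside the members by scaling each tumor to its summed counts of 10 pan-leukocyte genes instead of its library size. These genes, among them Ptprc, Coro1a and Was, made up 0.0237% to 0.0513% of counts in D69A tumors and 0.0691% to 0.176% in WT tumors. On this scale the median of all tested genes shifted to 1.84, with 314 genes lower and 11546 higher, so a value near 0 means a decrease as large as that of leukocyte genes as a whole. Fcrla (log2 difference -0.87, SE 0.35, adjusted p = 0.0232) and Ltb (-0.76, SE 0.32, adjusted p = 0.0282) were lower beyond it by edgeR's quasi-likelihood method, 2 of the 7 members where 2.28% of tested genes were lower and 83.7% higher. Fcrla lost this call without D69A tumor 4 (adjusted p = 0.0521) or D69A tumor 5 (0.0779). Ltb lost it without D69A tumor 3 (0.0565), D69A tumor 5 (0.0905), WT tumor 4 (0.0763) or WT tumor 5 (0.0515), and with Lcp1 left out of the scaling genes (0.0527).

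The other 5 tested members did not pass on this scale. The log2 difference was -1.14 for Tnfrsf13c (95% interval -2.25 to -0.03, adjusted p = 0.051 by edgeR's quasi-likelihood method), which passed without D69A tumor 1 (-1.41, adjusted p = 0.0388). It was -0.32 for Ebf1 (-0.95 to 0.31), -0.23 for Cd79b (-1.24 to 0.79), -0.20 for Cxcl13 (-1.26 to 0.86) and 0.15 for Cd22 (-0.55 to 0.85). For Cxcl13 the sign turned without WT tumor 5 (0.40) or D69A tumor 1 (0.03), and for Cd79b without D69A tumor 3 (0.06). On the same scale 8 of 12 T cell markers were lower (median -0.88), as were 1 of 8 tested B cell markers (Fcrla) and 6 of 10 NK cell markers. Of 15 tested genes of B cell receptor signalling, 1 was lower and 6 were higher (median 0.35). Of 14 tested lineage transcription factors, 0 were lower and 4 higher (median -0.15). Of 6 tested receptor chains and coreceptors, 0 were lower and 1 was higher (median 0.23).

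**Figure D4:**
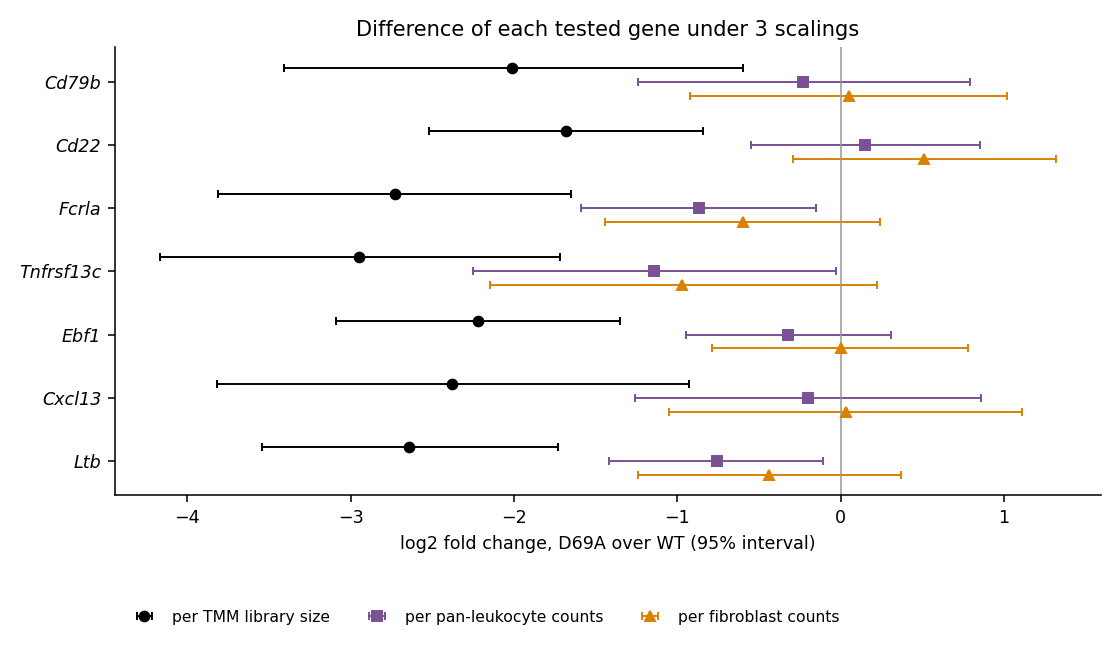
Log2 fold change of D69A over WT for the 7 tested members with 95% intervals, scaled by library size (black circles), by pan-leukocyte counts (purple squares) or by fibroblast counts (orange triangles). By library size all 7 intervals lie below 0, by pan-leukocyte counts those of Fcrla, Tnfrsf13c and Ltb do, and by fibroblast counts none does.

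Scaled to 14 fibroblast genes, no member was called (0 of 7, at a background of 0.833% lower and 85% higher). Fibroblast genes made up 0.0674% to 0.196% of counts in D69A tumors and 0.313% to 0.755% in WT tumors, and the median of all tested genes shifted to 2.16 on this scale, with 115 genes lower and 11733 higher. Ebf1 had a log2 difference of 0.00 (95% interval -0.79 to 0.78), Cxcl13 of 0.03 (-1.05 to 1.11) and Cd22 of 0.51 (-0.29 to 1.32). No member had an unadjusted p under 0.05 here, the smallest being 0.111 for Tnfrsf13c by edgeR's quasi-likelihood method. The scaling counts were treated as exact, so these intervals leave out the error of the summed genes.

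Of 12630 tested genes with a mean of at least 1 CPM, those whose profile over the 10 tumors was nearest to that of Cd79a, Ebf1, Cxcl13 or Ltb, the 4 members for which this was computed, were sought by the mean absolute difference of log2(CPM + 0.1), each gene centred on its own mean. Of these 4, Ltb had the closest neighbors, among them Cd247 (0.11), which encodes a chain of the T cell receptor complex, Pdcd1lg2 (0.13), Tnfsf10 (0.15) and Il2rb (0.17). When each gene was centred within its group instead, Ctsw and Cd247 (both 0.11) were nearest. For Ebf1 the nearest were Sfrp1 (0.15), Aim2 (0.16), H2-M3 (0.17), Tmem154 (0.18) and Nfam1 (0.18), and within groups Tril (0.12) and Sfrp1 (0.14). Cxcl13 had more distant neighbors, led by Ltc4s (0.25) and Pdpn (0.26), which encodes the podoplanin of lymphoid stromal and other cells. For Cd79a the smallest distance was 0.47 over all tumors (Pcdhgc5) and 0.40 within groups (Sim1).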

How the data were processed

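Read counts per Ensembl gene were deposited by the authors as 1 table of whole numbers that differ in total between tumors. fastp, HISAT, Bowtie and RSEM, and the build mm10, are named per the submitters' processing notes. What each tool did, its version, the annotation and whether counting used strand is not given in the sources used here. Since RSEM gives estimated counts, the values may be rounded estimates. Symbols were matched to 17670 of 17737 identifiers with GENCODE mouse release M21, which also gave coordinates and exon lengths. The table held 0 columns of other samples.

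Low genes were dropped by filterByExpr, TMM factors were computed, and the contrast D69A minus WT was tested by quasi-likelihood in edgeR 4.0.16 (R 4.3.3), and p-values were adjusted after Benjamini and Hochberg over 13798 genes, at a threshold of 0.05. Adjusted p-values come from this test unless another is named. SEs and 95% intervals were derived from the F statistic, and floors based on counts hold for counting error alone. The same test was repeated with library sizes replaced by summed pan-leukocyte or fibroblast counts. Levels per tumor were compared by exact permutation of log2(CPM + 0.1) over 252 assignments. Every pair of tumors within a group differed by more than counting noise (smallest chi-square per degree of freedom 13.9 over genes with at least 20 counts). The test was checked on simulated counts.

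The members and lists were chosen with earlier results of these data known. Named are all 8 members, up to 4 genes of each list by smallest p, and the nearest genes in profile. Ms4a1, Fcer2a, Blk, Pax5, Cr2, Jchain, Iglc2, Ccl19, Lta, Ltbr, Traf3, Siglech and genes that did not pass lie outside this rule and were picked with their values known. Cd3e, Ptprc and Ccl21a lie outside it as well. Motifs were searched in RefSeq promoter windows. Cd79b was not among them, and protein sequences were not used here.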

Additional observations from a re-analysis of the deposited data

Results flagged for a closer look

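For 52 genes, the highest and lowest tumor of each group were compared with the rest by Dixon's ratio, with a critical value of 0.71 for 5 tumors. A tumor stood apart in 17 of the 104 gene and group pairs (16.3%). Chance gives about 1 in 20 for independent normal values, and values of 1 tumor are not independent of each other.

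Among the members, Cxcl13 was singled out in WT tumor 5 (3.05 CPM, the next WT tumor at 1.01). Most other cases lay in D69A tumor 1, above the rest of its group: Cd72 (20.9 CPM), Lyn (48.7), Btk (5.05), Inpp5d (19.6), Ikzf1 (10.4), Irf8 (59), Tnfrsf13b (3.85), Map3k14 (17.6), Nfkb2 (51.8), Cxcl12 (20.1), Icam1 (9.97), Bst2 (401) and Irf7 (51.2). D69A tumor 1 was also the highest D69A tumor in 7 of the 8 members, all but Cxcl13, and in the summed pan-leukocyte, fibroblast and muscle markers. Xbp1 was singled out in WT tumor 5 (197 CPM). Ccl21a, a lymphoid chemokine gene, was singled out in D69A tumor 2 (0.0278 CPM, from 1 count) and in WT tumor 3 (0.492 CPM, from 18 counts).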

How the results depend on the processing

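Library size normalization by RLE, upper quartile or totals alone, DESeq2 and limma-voom with sample weights kept all 7 tested members lower. A filter of at least 1 CPM in 5 tumors left 4 of them, all lower, since fewer genes were tested. Cxcl13 had a log2 fold change of -1.47 in limma-voom (adjusted p = 0.0319). Genes called higher numbered 1334 at an adjusted p of 0.01 and 1727 after removal of the 3 muscle-rich tumors (chosen after seeing the data), against 2594, and the cause was not tested.

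Leaving out 1 tumor at a time gave 2826 to 3631 genes lower, 2095 to 2936 higher and 6 to 7 members lower. Relative to pan-leukocyte genes, 0 to 3 members were lower, and log2 differences ranged from -0.42 to 0.06 for Cd79b and from -0.50 to 0.40 for Cxcl13. Relative to fibroblast genes, 59 to 239 genes were lower, with ranges of -0.30 to 0.37 for Cd79b, -0.15 to 0.56 for Cxcl13 and -0.30 to 0.21 for Ebf1. With Lcp1 left out of the pan-leukocyte list 1 member was lower. With Col3a1 left out of the fibroblast list 234 genes were lower, Cd79b was at -0.07 and Cxcl13 at -0.11. The cause of these shifts was not tested.

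Both groups hold tumors numbered 2 to 5, but deviations of same-numbered tumors correlated at 0.18, -0.42, 0.20 and 0.17, and 2 of the 4 numbers correlated best with their own, so the numbers were not taken as pairs, although these values do not exclude a pairing. With the replicate number as a block over 8 tumors, 3186 genes were lower, 2433 higher and 7 members lower. Under that block 401 genes and 2 members (Fcrla, -0.90, adjusted p = 0.0151, and Ltb, -0.69, adjusted p = 0.0439) were lower relative to fibroblast genes, Cd79b was at -0.40 on that scale, and Tnfrsf13c was at -1.52 relative to pan-leukocyte genes (adjusted p = 0.046).

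Counts were few for Cd79a, Ms4a1 and similar genes, where 3 counts correspond to about 0.1 CPM.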
